A study of Arabidopsis thaliana with 12 samples.

Results

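The transcripts described here belong to 4 genes of antioxidant metabolism in Arabidopsis thaliana: AT3G52960, which encodes a type II peroxiredoxin of the plastid, SRX for sulfiredoxin, NTRC for the plastid NADPH-dependent thioredoxin reductase, and GLDH for the last enzyme of ascorbate synthesis. They are 4 of the 620 genes that had a probe assigned to them alone and measured above the lowest intensities. Each had 1 such probe. The genes were chosen by their measured intensity difference between flu and wild type (WT), so that difference is given as a description and carries no test. Genotypes were compared on 12 arrays of total RNA, 6 of the flu mutant, which lacks the FLU regulator of chlorophyll synthesis, and 6 of WT. Both are of the Landsberg ecotype, and both were taken 30 min after light returned at the end of 12 h of darkness. The labels give no tissue, age or number of plants, and 0 of 11 markers of leaf, root, seed, flower, guard cell, phloem and epidermis had a probe of their own, so the tissue was not checked.

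FLU restrains chlorophyll synthesis in the dark. Without it protochlorophyllide builds up at night and releases singlet oxygen in the plastid when light returns. Peroxiredoxins are thiol enzymes that reduce hydrogen peroxide and organic peroxides and then need to be reduced themselves. The type II enzyme of the plastid is known to draw on glutathione and glutaredoxin, whereas NTRC is best known as the reductant of the 2-Cys peroxiredoxins, another plastid class. Sulfiredoxin repairs 2-Cys peroxiredoxins that peroxide has overoxidised. Ascorbate, a substrate of peroxidases in the plastid, is completed outside it, by GLDH at the inner mitochondrial membrane. GLDH is also known for a role in the assembly of respiratory complex I.

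The values are intensities with no unit, quantile normalised between arrays. A floor was set at 0.250, the 25th percentile over all arrays, and lower intensities were lifted to it before log2 was taken. Arrays 1 and 2, 3 and 4, and 5 and 6 of a group resembled each other more than the other arrays of that group and were averaged as 3 pair means. Correlations of the arrays' deviations from the group mean were 0.207 to 0.684 within these pairs and -0.549 to -0.038 between them. The plants behind each array or pair are likewise not given in the sources used here. Errors and p-values therefore measure the spread among these arrays alone, and it may be technical. In bulk RNA, fewer cells that express a gene and less RNA per cell cannot be told apart.

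The peroxiredoxin and the other 3 genes lay on opposite sides. AT3G52960 was 4.04-fold higher in flu than in WT. GLDH was 2.48-fold lower in flu, NTRC 1.65-fold lower and SRX 1.51-fold lower. For each of the 4 genes, all 6 flu arrays lay on the same side of all 6 WT arrays, but the gap was wide for AT3G52960 and GLDH and narrow for SRX and NTRC.

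AT3G52960, the peroxiredoxin, had a lowest, median and highest normalised intensity of 0.892, 1.25 and 1.41 on the flu arrays. On the WT arrays these were 0.140, 0.300 and 0.370. The lowest flu array was 1.27 above the highest WT array on the log2 scale. Pair means were 1.35, 1.29 and 0.988 in flu and 0.349, 0.299 and 0.250 in WT, in the order of arrays 1 and 2, 3 and 4, and 5 and 6. Arrays 5 and 6 were thus the lowest in both genotypes, and both of these WT arrays were under the floor. The mean was 1.21 ± 0.194 over the 3 flu pair means and 0.299 ± 0.0498 over those of WT (SD, n = 3 each). The log2 difference was 2.02 (SE 0.18). By pair it was 1.95, 2.11 and 1.99. As far as the floor goes, the last value is a lower bound, because both WT arrays of that pair were lifted to it. Without the floor it was 2.53, a setting added after seeing the data. The fitted log2 difference and the 4.04-fold are low estimates in that respect alone. The floor also narrows the WT spread behind the SE. With the floor at the 10th percentile the log2 difference was 2.20 (SE 0.29). With the dependence on probe number subtracted, as described below, the fitted log2 difference fell to 1.51 or 1.29.

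**Figure D1:**
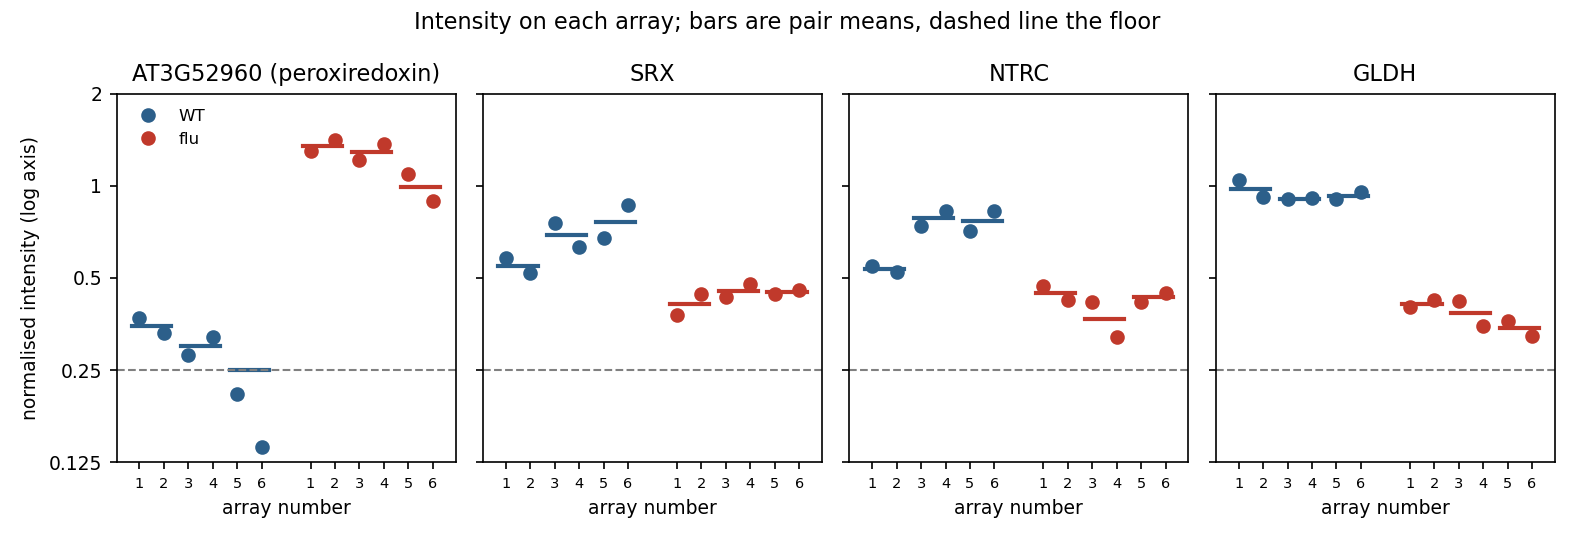
Normalised intensity (log axis) of AT3G52960, SRX, NTRC and GLDH on each WT array (blue) and flu array (red), by array number. Short bars are the means of arrays 1 and 2, 3 and 4, and 5 and 6 after flooring, and the dashed line is the floor of 0.250. The flu arrays lie above all WT arrays for AT3G52960 and below all WT arrays for the other 3 genes, with a narrow gap for SRX and NTRC.

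NTRC joins a thioredoxin reductase and a thioredoxin domain in 1 protein and passes electrons from NADPH to peroxiredoxins, also in the dark. Its lowest, median and highest intensity was 0.322, 0.421 and 0.470 in flu and 0.521, 0.724 and 0.829 in WT. The lowest WT array stood 0.15 above the highest flu array on the log2 scale. Its mean was 0.415 ± 0.0429 in flu against 0.694 ± 0.139 in WT (SD, n = 3), a log2 difference of -0.73 (SE 0.19). The size differed between the pairs more than for the other 3 genes, with log2 differences of -0.26, -1.10 and -0.83 (SD 0.43). The small value belongs to arrays 1 and 2, where the WT pair mean was 0.534, against 0.783 and 0.766 in the other WT pairs. Without WT arrays 1 and 2 the log2 difference of NTRC was -0.91, and without any other pair of arrays it lay between -0.78 and -0.63.

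SRX, which uses ATP to restore overoxidised peroxiredoxins, showed the smallest difference of the 4. Its lowest, median and highest intensity was 0.380, 0.443 and 0.478 in flu and 0.518, 0.654 and 0.863 in WT. The flu arrays lay close together, within 1.26-fold, and the WT arrays spread over 1.67-fold, with the lowest only 0.12 above the highest flu array on the log2 scale. The mean was 0.438 ± 0.0243 in flu against 0.668 ± 0.110 in WT (SD, n = 3). The log2 difference was -0.60 (SE 0.15), from -0.42 in arrays 1 and 2 to -0.60 and -0.77 in the other pairs. SRX in flu, like NTRC in flu, stood near the middle of all probes: the deposited medians of the arrays were 0.426 to 0.491.

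GLDH oxidises L-galactono-1,4-lactone to ascorbate and hands the electrons to cytochrome c. Its lowest, median and highest intensity was 0.324, 0.382 and 0.424 in flu and 0.902, 0.915 and 1.04 in WT. Of the 4 genes it varied least among the WT arrays, over 1.16-fold, and the lowest WT array was 1.09 above the highest flu array on the log2 scale. The mean was 0.379 ± 0.0352 in flu against 0.938 ± 0.0362 in WT (SD, n = 3), a log2 difference of -1.31 (SE 0.11). The 3 pairs gave -1.25, -1.24 and -1.44. No flu or WT array was at the floor for GLDH, NTRC or SRX.

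The contrast between the peroxiredoxin and each of the others was taken within pairs, as the log2 difference of AT3G52960 minus that of the other gene. Against SRX it was 2.37, 2.71 and 2.75, a mean of 2.61 ± 0.21 (SD, n = 3 pairs). Against NTRC it was 2.21, 3.20 and 2.81, a mean of 2.74 ± 0.50. Against GLDH it was 3.20, 3.35 and 3.42, a mean of 3.32 ± 0.12. As far as the floor goes, and in that respect alone, the third value of each contrast, and so each mean, is a lower bound. AT3G52960 was at the floor on WT arrays 5 and 6, which also narrows the SDs. With the profile over probe number subtracted, the contrasts were smaller, at 1.79 against SRX, 1.73 against NTRC and 2.43 against GLDH. With the local median over probe number subtracted they were 1.82, 1.61 and 2.44. Both were computed after seeing the data. The ratio of 2 probes on 1 array has no meaning as a ratio of transcripts, so levels are not set against each other. These sums rest on the same differences that chose the genes.

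**Figure D2:**
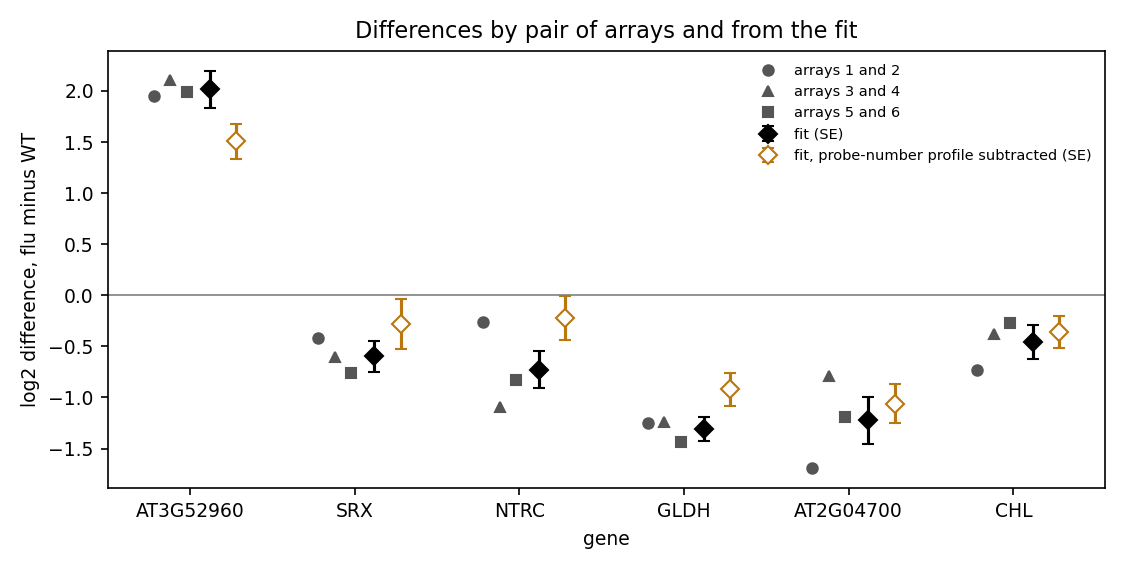
Log2 difference, flu minus WT, of the 4 genes and of AT2G04700 and CHL, by pair of arrays (grey), from the fit (black, with SE) and from the fit with the profile over probe number subtracted (open, with SE). AT3G52960 and GLDH keep most of their difference after the subtraction, at 1.51 and -0.92, while SRX and NTRC come to -0.28 and -0.22.

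Among all 3128 tested probes the peroxiredoxin stood far out and its companions less so. The log2 difference of AT3G52960 was higher than that of 99.0% of the probes. GLDH was lower than 97.5%, NTRC than 83.6% and SRX than 78.7% of them. The median log2 difference was -0.04 over all probes and -0.04 over the 620 genes. By limma, 1216 probes (38.9%) passed an adjusted p of 0.05, with 17.5% higher and 21.4% lower in flu. Among the 620 genes 36.8% passed, 16.9% higher and 19.8% lower. The 4 genes were among them, 1 higher and 3 lower, a count that their choice fixed and that shows nothing further. No overlap between the genotypes' pair means was seen for the 4 genes, nor for 49.2% of the 620.

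**Figure D3:**
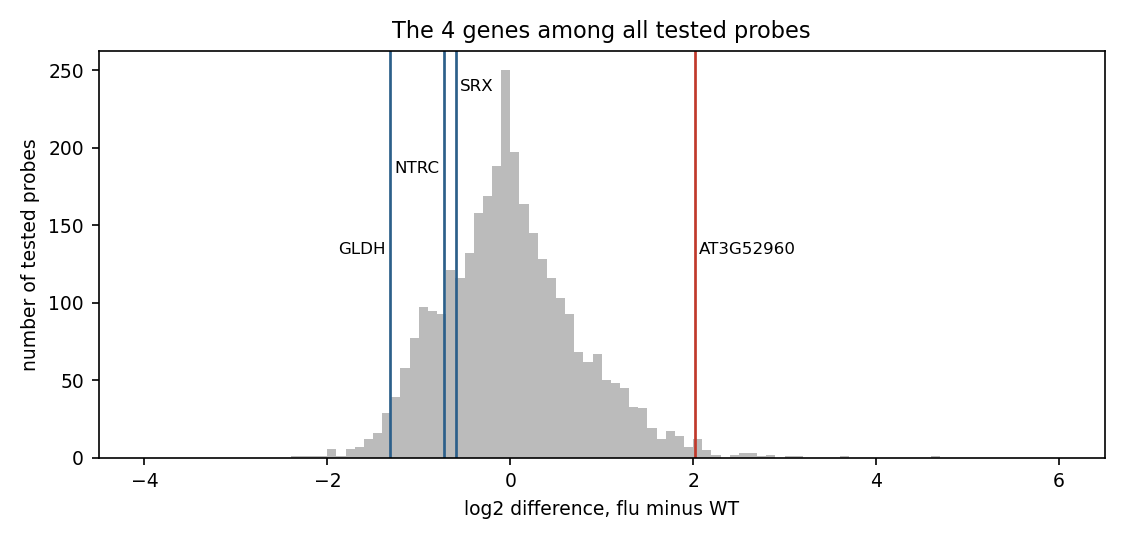
Number of tested probes (y) by log2 difference, flu minus WT (x), for all 3128 tested probes, with lines at the 4 genes. AT3G52960 at 2.02 lies in the upper tail and GLDH at -1.31 in the lower tail, while NTRC at -0.73 and SRX at -0.60 lie within the bulk.

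Differences on these arrays depended on probe number, in a cycle that repeats along the numbering. The length of the cycle was a fixed setting and was not tested. The profile was taken, on each array, as the median of the tested probes that lie within 3 places of a probe in that cycle. It differed between flu and WT in the direction of the gene itself at all 4 genes: by 0.51 around AT3G52960, -0.32 around SRX, -0.51 around NTRC and -0.39 around GLDH on the log2 scale. With the profile subtracted, the log2 differences were 1.51 (SE 0.17) for AT3G52960 and -0.92 (SE 0.16) for GLDH. They were -0.28 (SE 0.24) for SRX and -0.22 (SE 0.21) for NTRC, about the size of their errors. In that fit 36% of the probes and 36.1% of the genes passed, and of the 4 genes AT3G52960 and GLDH were among them. With the median of the probes up to 12 numbers to each side subtracted instead, AT3G52960 stood at 1.29, GLDH at -1.14, SRX at -0.53 and NTRC at -0.31. AT3G52960 and GLDH kept most of their difference under both subtractions. NTRC lost most of its difference under both, and SRX lost about as much as it kept with the profile and little with the local median.

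The settings tried left the direction of the 4 genes as it was. AT3G52960 ranged from 0.79 to 2.20 and GLDH from -1.43 to -0.49 on the log2 scale. NTRC ranged from -0.91 to -0.22 and SRX from -0.73 to -0.21. The deposited values before normalisation also separated the genotypes. AT3G52960 ran from 0.859 to 1.41 in flu and 0.159 to 0.374 in WT. SRX ran from 0.359 to 0.469 in flu and 0.516 to 0.872 in WT.

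**Figure D4:**
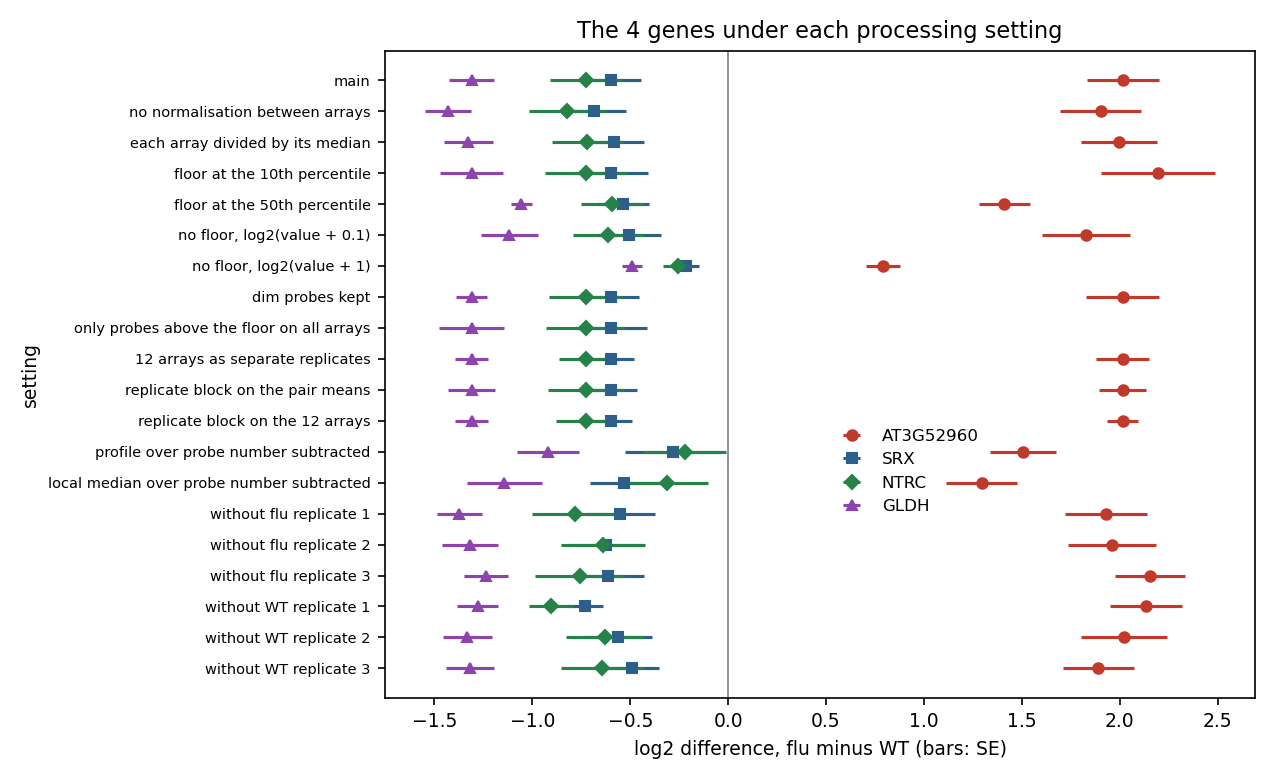
Log2 difference, flu minus WT (x, bars are SE), of the 4 genes under each processing setting (y). Replicate 1, 2 and 3 stand for arrays 1 and 2, 3 and 4, and 5 and 6 of the group named. AT3G52960 stays above 0 and the other 3 genes below 0 in each setting run, with the smallest values for SRX and NTRC where a profile over probe number was subtracted or 1 was added before log2.

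Within a genotype the 4 genes did not all vary together. On the WT arrays, the deviations of SRX and NTRC from their group means had a Pearson r of 0.804 (6 arrays), both being low on arrays 1 and 2. On the flu arrays the same pair had an r of -0.723. AT3G52960 ran against SRX and NTRC in WT (r of -0.785 and -0.657, 6 arrays each) and less so in flu (-0.159 and -0.386). It ran with GLDH in both groups (0.560 in WT and 0.661 in flu). These figures describe few points, since neighbouring arrays form pairs, and the arrays also share normalisation and, for AT3G52960 in WT, values at the floor.

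**Figure D5:**
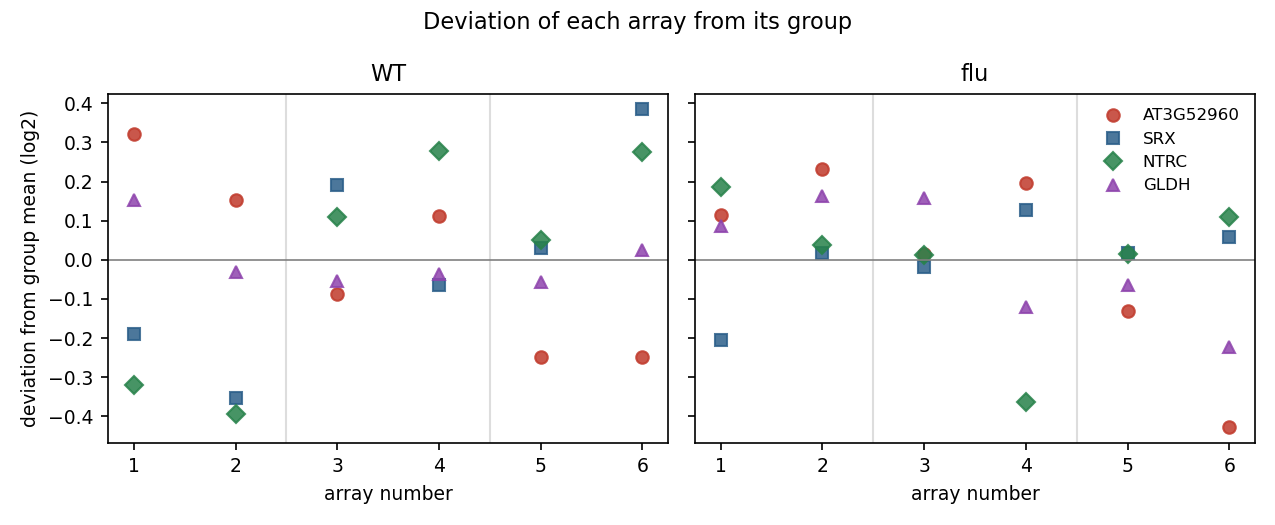
Deviation of each array from its group mean (log2, y) for the 4 genes by array number (x), WT on the left and flu on the right, with grey lines between the pairs of arrays. In WT, SRX and NTRC are low on arrays 1 and 2, where AT3G52960 is high, and in flu the deviations of SRX and NTRC go apart on arrays 1 and 4.

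Genes whose deviations over the 12 arrays were most like those of each of the 4 were taken among 620 other probes with 1 gene. For AT3G52960 they were AT5G52530, AT3G26630 and AT4G32060, with Pearson r of 0.891, 0.877 and 0.848. For SRX they were AT4G22490 (0.899), CCL (0.895) and AT3G12930 (0.876). For NTRC they were ATSPS4F (0.884), of the sucrose phosphate synthase family, AT3G02030 (0.814) and AT3G13150 (0.804). For GLDH they were AT1G32220 (0.815), AT1G73120 (0.813) and Cpn60beta4 (0.803), a chaperonin subunit of the plastid. Deviations from the group mean leave out the difference between flu and WT. The 3 genes most like GLDH were higher in flu, by 0.74, 0.33 and 0.51 on the log2 scale. CCL (0.18) and AT3G13150 (0.48) were also higher in flu, unlike SRX and NTRC. The other genes listed differed in the direction of the gene they resembled. The 95th percentile of r over all these probes was already 0.581 to 0.694, so likeness of this kind is common on these arrays.

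Of 123 genes in 6 lists of thiol peroxidases and thioredoxins, ascorbate synthesis, ascorbate recycling and glutathione, superoxide dismutases and catalases, tocopherol synthesis and lipid protection, and the singlet oxygen response, 6 had a probe of their own. These were the 4 genes and 2 others, of which 1 fell and 0 rose, beside 19.8% lower and 16.9% higher among all 620 genes. A count of 1 of 2 shows nothing about the lists. A further 6 probes are assigned to several genes, at least 1 of them in these lists, and are not named or used here. The other genes of the lists, among them the 2-Cys peroxiredoxins, are not analysed here.

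The gene that fell was AT2G04700, the catalytic subunit of ferredoxin-thioredoxin reductase, which passes electrons from photosystem I to the plastid thioredoxins in the light. It is the light-driven counterpart of the NADPH-driven NTRC. Its lowest, median and highest intensity was 0.208, 0.237 and 0.258 in flu and 0.423, 0.581 and 0.856 in WT. Flu was above the floor on 1 of 6 arrays, and WT on 6 of 6. The lowest WT array was 0.72 above the highest flu array on the log2 scale, a gap wider than for NTRC or SRX. Pair means in WT were 0.806, 0.431 and 0.578, and in flu 0.250, 0.250 and 0.254. AT2G04700 fell by 1.22 on the log2 scale (SE 0.23, limma adjusted p = 0.0081), lower in 6 of 6 flu arrays. It was 2.33-fold lower in flu in this fit. As far as the floor goes this is a lower bound, because 5 flu arrays were lifted to it. The floor also narrows the flu spread behind the SE and p. Smaller differences came with the dependence on probe number subtracted. Subtracting the profile over probe number gave -1.06 (limma adjusted p = 0.0049). Subtracting the local median gave -0.72 (limma adjusted p = 0.0192). Over its alternatives the limma adjusted p ran from 3.4e-05 to 0.225. The lowest came with the 12 arrays as separate replicates, which sets aside the likeness within pairs. AT2G04700 did not pass with the floor at the 50th percentile, which also raises WT values. It was not tested where a probe had to be above the floor on all arrays.

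CHL, a plastid lipocalin that protects thylakoid lipids, did not pass. It stood at 0.265 ± 0.00955 in flu against 0.369 ± 0.0774 in WT (SD, n = 3). The log2 difference was -0.46 with an SE of 0.17 (limma adjusted p = 0.072). Flu and WT arrays overlapped, with 0.305 as the highest flu and 0.260 as the lowest WT intensity. Flu was above the floor on 4 of 6 arrays. As far as the floor goes the size of the difference is a lower bound, and the floor also narrows the flu spread. Subtracting the profile over probe number gave -0.36 (limma adjusted p = 0.104). With the local median subtracted CHL stood at -0.66 and passed (limma adjusted p = 0.0314). CHL passed with the array number as a replicate block on the 12 arrays (limma adjusted p = 0.0105). That fit counts the arrays of a pair as separate replicates, although they resembled each other. CHL did not pass with the pair as a block on the pair means (limma adjusted p = 0.0545). Over its alternatives the limma adjusted p ran from 0.0105 to 0.649. Without WT arrays 1 and 2 the log2 difference of CHL was -0.29 (limma adjusted p = 0.0479).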

How the data were processed

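The deposited table holds 1 intensity per probe and array, on a linear scale, for 3439 probes and 12 arrays. What the authors did to make these deposited intensities (scanner, background correction, scaling) was not given in the sources used here. Array sums were 3247 to 3350. The number of arrays limits the precision. Array medians spread by 15.4%, more than the 5% allowed, so arrays were quantile normalised. All flu medians (0.426 to 0.442) were under the WT medians (0.443 to 0.491), and normalisation removed that difference. After flooring and log2, 311 probes at the floor on every array were left out. The pair means entered lmFit and eBayes of limma 3.58.1 (R 4.3.3), a two-sided test with Benjamini-Hochberg adjustment over 3128 probes, and the scripts were tested on simulated data. Each adjusted p comes from that fit or, where an alternative setting is named beside it, from the fit under that setting.

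Pair means with the same number in both groups deviated together (r of 0.265 to 0.462). What arrays of the same number shared was not tested. No label states that the numbers pair the samples, and the fit holds the group alone. A block by pair number was run as an alternative. Of the probes, 692 have 1 gene in the platform annotation, which can be old, 870 have several and 1877 are not listed. Symbols came from the TAIR10.1 gene table. The probes' build was not given in the sources used here, and no coordinates or sequences are printed. The genes and lists were chosen with earlier results of these data known. Genes named are the 4, the other list genes with a tested probe of their own, and for each of the 4 the 3 most like it. No named gene lies next to the 4 in probe number. Alternatives changed normalisation, floor, pseudocount, dim-probe filter, replicates, pairing, probe-number dependence and left-out pairs.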

Additional observations from a re-analysis of the deposited data

Results flagged for a closer look

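On 3 occasions, 1 of the 6 arrays of a group stood apart from the others by Dixon's ratio, the gap to the nearest array over the whole range, with a critical value of 0.625. NTRC was low on flu array 4, at an intensity of 0.322 against 0.417 to 0.470 on the other flu arrays (ratio 0.684). CHL was high on flu array 2, at 0.305 (ratio 0.656). The ratios were taken on log2 values after flooring. Flu arrays 1 and 6 of CHL were lifted to the floor, which shortens the range and raises this ratio. AT2G04700 had a ratio of 1 on flu array 6, which is the only flu array above the floor, so that the other 5 tie. With independent, normally distributed values chance alone gives such a value in about 1 of 20 groups, and 12 groups were examined. Here neighbouring arrays form pairs and some values lie at the floor, so that rate need not hold.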

How the results depend on the processing

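Under 19 alternatives (18 for AT3G52960, AT2G04700 and CHL, which are lost when a probe must be above the floor on all arrays), no log2 difference of the 6 genes changed sign. For AT3G52960 it was 1.41 with the floor at the 50th percentile, 0.79 with log2(value + 1), 1.51 with the profile over probe number subtracted and 1.29 with the local median subtracted. In the same order GLDH stood at -1.06, -0.49, -0.92 and -1.14, and also at -1.43 without normalisation and -1.12 with log2(value + 0.1). NTRC stood at -0.26 with log2(value + 1), -0.22 with the profile subtracted and -0.31 with the local median subtracted, and SRX at -0.21 and -0.28 under the first and second of these. Adding 1 compresses every difference by construction, and the higher floor those with values under it. For the other moves the cause was not tested.

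Leaving out 1 pair of arrays gave 1.89 to 2.15 for AT3G52960, -1.37 to -1.24 for GLDH, -0.91 to -0.63 for NTRC and -0.73 to -0.49 for SRX. Of the 4 genes 4 passed in the fit as reported, but 2 with the profile subtracted and 3 with the local median subtracted. Leaving out a pair gave 2 to 4: AT3G52960 and GLDH alone passed without any 1 flu pair, or without WT arrays 3 and 4 or 5 and 6. Of all 3128 probes 1216 passed as reported, and 840 to 909 without a flu pair. Without WT arrays 3 and 4 it was 1299, and without WT arrays 5 and 6 it was 1048. With the profile subtracted 1127 passed and with the local median subtracted 1222. The 4 genes were chosen on this contrast, so their counts carry no test. Of AT2G04700 and CHL, 1 passed as reported. Both (2) passed without normalisation, with median scaling, with the 12 arrays as replicates, with the array number as a replicate block on them, and with the local median subtracted, and 0 with the floor at the 50th percentile or, untested, with only probes above the floor on all arrays. Leaving out a pair gave 1 to 2.

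Over all probes 1216 passed, against 743 of the 1648 above the floor on all arrays, 1892 with the replicate block on the 12 arrays, 1371 with the block on the pair means, and 840 to 1299 with a pair left out. The block on the pair means changed no call of the 6 genes. With the profile subtracted 1127 passed, 662 of them also called as reported.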
